A study of Mus musculus with 6 samples.

Results

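The immediate early transcription factors are represented here by 10 genes, Fos, Fosb, Fosl2, Jun, Junb, Jund, Egr1, Ier2, Ier3 and Myc. They were chosen by name from the 23337 genes of the count table, with earlier results of these data known. All 10 passed the filter on low counts, as did 14587 genes in all. The cells were heart muscle cells of wild-type mice injected on postnatal day 1 with an adeno-associated virus (AAV) for GFP, for XBP1S or for ATF6N. XBP1S usually denotes the active XBP1 protein made from spliced mRNA, and ATF6N the amino-terminal piece of ATF6 that enters the nucleus. Each activates genes of the unfolded protein response to stress in the endoplasmic reticulum. At 4 weeks of age the hearts were dissociated by Langendorff perfusion, cardiomyocytes were sorted by flow cytometry, and 2 RNA-seq libraries were made per virus. The labels name the viruses AAV-GFP, AAV-XBP1 and AAV-ATF6, and the series' design text gives the last pair as AAV-XBP1S and AAV-ATF6N, the names used here. The promoter that drove each virus is not given in the sources used here, nor is the number of mice behind a library. The labels do not say that the libraries of a group came from separate animals, so p-values measure only the spread between these libraries, which may be technical.

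Immediate early genes are transcribed within minutes of a stimulus, without new protein synthesis, from promoters that respond to kinase pathways through serum response factor, CREB and NF-kB. FOS and JUN proteins pair to form AP-1, EGR1 and MYC bind DNA of their own, and IER2 and IER3 are small proteins of the same early wave. In heart muscle they respond to stretch, adrenergic stimulation and pressure load. Enzymatic dissociation and sorting of a tissue also induce many of them, so a level measured in sorted cells holds what the living heart expressed and what was made during isolation.

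RefSeq promoter windows (build GRCm38.p6, from 250 bases before to 50 after the start site) were at hand for 7 of the 10 genes, namely Fos, Fosb, Fosl2, Jun, Junb, Jund and Ier3. The 250 bases upstream of the start site are shown for 3 of them. They are Fos, which passed the test in AAV-ATF6N, Fosb, its close relative, and Ier3, which was lower than control in both treated groups. Capitals mark matches to the motifs named in the next paragraph. The stretch of Fos lies at chr12:85473640-85473889 on the plus strand, Fosb at chr7:19310046-19310295 on the minus strand, and Ier3 at chr17:35821463-35821712 on the plus strand. Each sequence is written on the strand of its gene.
Fos: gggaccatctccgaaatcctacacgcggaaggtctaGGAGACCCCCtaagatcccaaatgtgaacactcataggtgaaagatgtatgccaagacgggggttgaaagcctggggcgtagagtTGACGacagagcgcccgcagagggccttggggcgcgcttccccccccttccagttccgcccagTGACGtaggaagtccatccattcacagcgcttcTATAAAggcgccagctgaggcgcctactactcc
Fosb: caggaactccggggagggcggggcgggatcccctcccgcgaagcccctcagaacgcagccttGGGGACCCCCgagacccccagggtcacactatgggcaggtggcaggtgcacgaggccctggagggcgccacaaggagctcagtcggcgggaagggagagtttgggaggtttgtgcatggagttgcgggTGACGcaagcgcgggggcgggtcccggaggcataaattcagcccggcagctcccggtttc
Ier3: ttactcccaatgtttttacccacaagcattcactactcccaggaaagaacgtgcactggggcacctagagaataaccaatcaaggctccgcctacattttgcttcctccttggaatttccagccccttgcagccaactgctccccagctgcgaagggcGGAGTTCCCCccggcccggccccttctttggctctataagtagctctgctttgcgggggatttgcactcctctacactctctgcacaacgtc

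Both strands of the windows were searched for 9 motifs. The CRE half-site TGACG, part of the element that CREB and ATF factors bind, was in the windows of 3 of the 7 genes, Fos, Fosb and Junb, and in 20.8% of all 32817 windows. In Fos it lay at -129 to -125 and at -66 to -62 from the start site, and in Fosb at -60 to -56. An NF-kB site was in the windows of Fos, Fosb, Fosl2 and Ier3, and in 4.5% of all windows. The NF-kB site lay on the opposite strand in Ier3 at -92 to -83, in Fos at -214 to -205 and in Fosb at -188 to -179. Its pattern is rich in G and C. The GC content of these windows was 58.7% in Fos, 68.3% in Fosb, 64.7% in Fosl2 and 54.0% in Ier3. The median over all windows was 52.7%, and the share of 4.5% was not matched for GC content. The TATA box TATAAA was in Fos, at -33 to -28, and in 13.6% of all windows. Its letters were also in Junb, but at 1 to 6, not upstream of the start site. None of the 7 windows held the full CRE TGACGTCA (1.79% of all windows), the AP-1 site TGANTCA (7.81%), the E-box CACGTG that MYC and XBP1 can bind (7.15%), the EGR site GCGTGGGCG (0.612%), the CArG box of serum response factor (1.63%), or the ER stress element ERSE (0.119%), which ATF6 binds. A full CRE would also count as a CRE half-site. A match is a run of letters, not a site shown to be used. Only exact patterns were searched, and the windows begin 250 bases before the start site. A motif farther upstream, or one that departs from its pattern, would not be seen. The absence of a match therefore does not show that a gene lacks the element, and Egr1, Ier2 and Myc had no window.

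**Figure D1:**
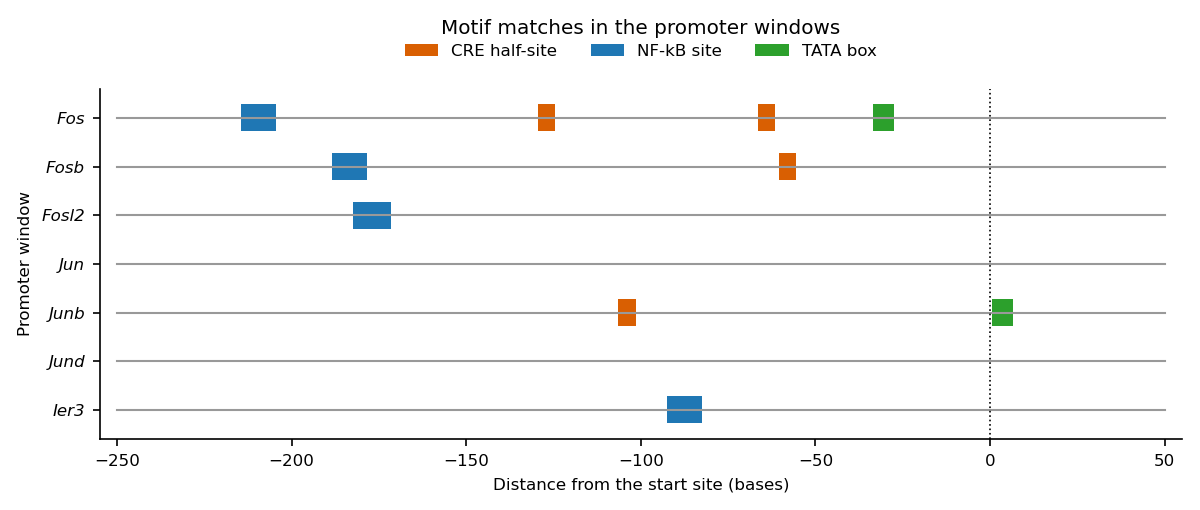
Positions of motif matches in the promoter windows of 7 genes. The x axis is the distance from the start site in bases, grey lines are the windows of 250 bases before to 50 after it, and coloured boxes are matches on either strand. Fos, Fosb and Junb hold a CRE half-site, Fos, Fosb, Fosl2 and Ier3 hold an NF-kB site, and the windows of Jun and Jund hold no match to the 9 motifs.

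Total counts per library ran from 67702482 to 112049342, so that 3 counts came to 0.0305 to 0.0459 CPM, the count scaled to a common library size. Library sizes for the CPM were adjusted by TMM. Atf6 stood at 44.9 and 70.6 CPM with AAV-GFP, 77.0 and 111 with AAV-XBP1S, then 162 and 158 with AAV-ATF6N. Xbp1 stood at 98.0 and 115, 160 and 166, and 145 and 152 CPM in the same order. The summed level of 10 cardiomyocyte markers was 111471 and 110861 CPM with AAV-GFP, 84181 and 94317 with AAV-XBP1S, then 133170 and 131707 with AAV-ATF6N. Against AAV-GFP, 2 of these 10 had a log2 fold change above 0 and 8 below in AAV-XBP1S, and 5 above and 5 below in AAV-ATF6N. Myh6 had 22989 and 41118 CPM with AAV-GFP, then 66559 and 65066 with AAV-ATF6N. Tnni3 had 17220 and 8969 CPM with AAV-GFP, then 6935 and 7086 with AAV-ATF6N. Sums of 8 endothelial markers were 592 and 856 CPM with AAV-GFP, 960 and 1310 with AAV-XBP1S, then 581 and 532 with AAV-ATF6N. All 8 had a log2 fold change above 0 in AAV-XBP1S against AAV-GFP, 4 of them without overlap, against 35.9% of all genes. In AAV-ATF6N against AAV-GFP 7 were below 0, and 5 lay lower without overlap, against 54.5% of all genes. All 8 lay lower in AAV-ATF6N than in AAV-XBP1S without overlap, against 56.9%. edgeR called 0 of the 8 in any comparison. In the same order of comparisons, 3, 4 and 6 had an unadjusted p under 0.05, against 11.6%, 13.5% and 13.2% of all genes. DESeq2 called 0, 2 and 4, against 3.17%, 3.76% and 5.39%. Sums of 8 fibroblast markers were 468 and 605 CPM with AAV-GFP, 813 and 967 with AAV-XBP1S, then 830 and 795 with AAV-ATF6N. Against AAV-GFP all 8 were above 0 in AAV-XBP1S, 6 of them without overlap, beside 35.9% of all genes. In AAV-ATF6N 6 were above 0 and 2 below, and 6 did not overlap, beside 54.5%. edgeR called 0 of them, 4 and 3 had an unadjusted p under 0.05, and DESeq2 called 1 and 1, beside the shares above. Sums of 8 macrophage markers ran from 39.7 to 61.2 CPM, with 7 and 6 above 0 against AAV-GFP. Sums of 8 smooth muscle markers ran from 880 to 1288 CPM, with 8 and 6 above 0. None of the markers was at 0 in any library. Their part in the levels of the 10 genes was not tested. AAV-GFP replicate 1 stood apart from the other 5 libraries on the first principal component. It had the highest share of Rn45s, a ribosomal RNA, at 0.337%. AAV-XBP1S replicate 1 followed at 0.130%, and the remaining libraries had 0.0319% to 0.0416%. The Y-linked gene Eif2s3y had 16.6 and 13.7 CPM with AAV-GFP, no count in AAV-XBP1S, then 44.3 and 43.2 CPM with AAV-ATF6N. Xist, expressed from the inactive X chromosome, had 24.6 and 7.88, 43.1 and 20.2, and 0.197 and 0.0919 CPM in the same order. The sex of the mice is not in the labels, and a difference of sex between these groups cannot be told apart from the virus in any comparison below.

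The FOS family supplies the AP-1 partner that cannot pair with itself. Fos, at chr12:85473901-85477270 (mm10, plus strand), is its rapidly induced prototype. It stood at 114 and 99.2 CPM with AAV-GFP, 187 and 166 CPM with AAV-XBP1S, then 348 and 347 CPM with AAV-ATF6N. Its levels were ordered AAV-GFP, AAV-XBP1S, AAV-ATF6N, and no libraries of different groups overlapped. Fos rose 3.25-fold in AAV-ATF6N over AAV-GFP, from 107 ± 10.8 to 347 ± 0.275 CPM (SD, n = 2), a log2 fold change of 1.70 with a standard error of 0.19 (adjusted p = 0.0277, edgeR quasi-likelihood test, Benjamini-Hochberg adjustment over the 14587 genes). It ranked 33 among the 14587 genes by p. AAV-XBP1S, at 176 ± 14.8 CPM, was 0.72 ± 0.19 (SE) above AAV-GFP on the log2 scale, which did not pass (adjusted p = 0.245, edgeR). The difference between AAV-ATF6N and AAV-XBP1S was 1.97-fold, and it passed in DESeq2 (adjusted p = 0.00182) but not in edgeR (0.094).

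Fosb, on chromosome 7 from 19302696 to 19310045 on the minus strand, encodes a FOS protein whose truncated splice form accumulates under repeated stimulation. Its counts were the lowest of the 10 genes, 32 to 234 per library. The level was 1.51 and 0.449 CPM with AAV-GFP, 1.82 and 1.44 with AAV-XBP1S, then 2.02 and 3.58 with AAV-ATF6N. Both AAV-ATF6N libraries lay above the other 4, while AAV-XBP1S overlapped AAV-GFP. The log2 fold change in AAV-ATF6N over AAV-GFP was 1.50 with a standard error of 0.62 (edgeR adjusted p = 0.367), so the difference was not separable from the spread between the control libraries. Without AAV-GFP replicate 2 it was 0.89, and without replicate 1 it was 2.63.

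Fosl2, also called Fra-2, lies on chromosome 5 from 32136472 to 32157839 on the plus strand and encodes a later-acting FOS protein. Its order of groups was the reverse of that of Fos, with 22.9 and 16.8 CPM with AAV-GFP, 18.3 and 17.6 with AAV-XBP1S, then 12.9 and 13.9 with AAV-ATF6N. It was lowest in AAV-ATF6N, whose libraries lay below the other 4. AAV-XBP1S lay within the range of AAV-GFP. The log2 fold change of -0.56 ± 0.23 (SE) in AAV-ATF6N did not pass (edgeR adjusted p = 0.369). Fos and Fosl2 had a Pearson r of -0.795 over the 6 libraries, given as a description.

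The JUN family can pair with itself or with FOS. Jun, on chromosome 4 from 95049036 to 95052222 on the minus strand, is a gene of 1 exon and encodes its transcriptionally strongest member. The level was 483 and 420 CPM with AAV-GFP, 451 and 425 with AAV-XBP1S, then 596 and 579 with AAV-ATF6N. The AAV-ATF6N libraries were above the other 4, and AAV-XBP1S overlapped AAV-GFP. The difference of AAV-ATF6N from AAV-GFP was 0.38 ± 0.18 (SE) on the log2 scale and did not pass (edgeR adjusted p = 0.388). In AAV-XBP1S it was -0.04 ± 0.18.

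Junb, on chromosome 8 from 84976909 to 84978748 on the minus strand, encodes a JUN protein that often restrains JUN activity. It had 276 and 205 CPM with AAV-GFP, 165 and 133 with AAV-XBP1S, then 193 and 201 with AAV-ATF6N. Here the control libraries were highest, AAV-XBP1S was lowest, and no groups overlapped, but the AAV-GFP library at 205 was close to AAV-ATF6N. The log2 fold changes over AAV-GFP were -0.69 ± 0.23 (SE) in AAV-XBP1S and -0.29 ± 0.23 in AAV-ATF6N (edgeR adjusted p = 0.335 and 0.511).

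Jund, on chromosome 8 from 70697739 to 70700616 on the plus strand, encodes the JUN protein that resting cells express constantly. It was measured at 236 and 124 CPM with AAV-GFP, 140 and 104 with AAV-XBP1S, then 145 and 169 with AAV-ATF6N. Its control libraries differed from each other more than those of either treated group did, and spanned all of AAV-ATF6N. Neither log2 fold change over AAV-GFP passed, at -0.56 ± 0.34 (SE) in AAV-XBP1S and -0.20 ± 0.33 in AAV-ATF6N (edgeR adjusted p = 0.573 and 0.759). Leaving out AAV-GFP replicate 1 turned the second value to 0.34. The library kits do not mark strand, so reads of Jun and of Junos, whose opposite-strand exons share 232 bases in GENCODE M21, cannot be told apart, nor can those of Jund and of Gm11175, which share 877 bases.

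**Figure D2:**
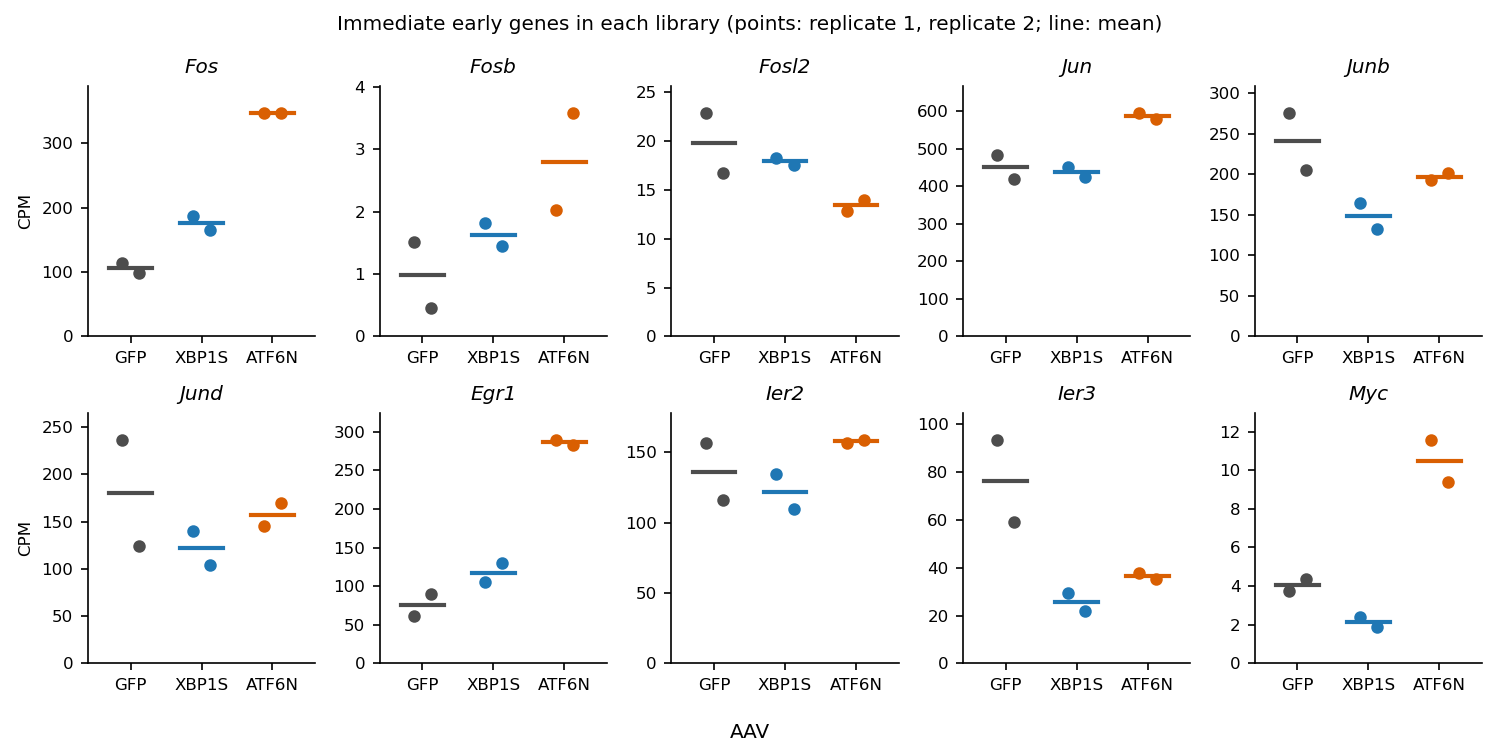
Level of each of the 10 genes in CPM (y axis, linear, from 0) by virus (x axis). Points are single libraries, replicate 1 left and replicate 2 right, and lines are the mean of 2. Fos, Egr1 and Myc stand highest in AAV-ATF6N, at 348 and 347, 289 and 283, and 11.6 and 9.38 CPM, while Ier3 is highest in AAV-GFP at 93.5 and 59.2 CPM.

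Per kilobase of exon (RPKM, the CPM divided by the exon length in kilobases), levels can be compared between genes. Jun was the first of the 10 genes in all 6 libraries and Fosb the last. Fos ranked 6th and 5th in AAV-GFP, 3rd and 2nd in AAV-XBP1S, and 2nd in both AAV-ATF6N libraries. The 3 FOS genes summed to 59.0 and 50.4 RPKM with AAV-GFP, 92.7 and 82.4 with AAV-XBP1S, and 169 in each AAV-ATF6N library, and Fos made up 92.7% to 98.4% of the sum. The 3 JUN genes summed to 384 and 286, 280 and 242, and 342 and 350 RPKM, and their composition differed, Jun making up 39.5% and 46.0% of the sum in AAV-GFP, 50.6% and 55.2% with AAV-XBP1S, then 54.6% and 51.9% with AAV-ATF6N. The ratio of FOS to JUN transcripts was 0.154 and 0.176 with AAV-GFP, 0.331 and 0.341 with AAV-XBP1S, then 0.493 and 0.484 with AAV-ATF6N. These ratios did not overlap between groups, and each was below 1, so JUN transcripts outnumbered FOS transcripts per length in every library. The sums and ratios are descriptions with no test.

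**Figure D3:**
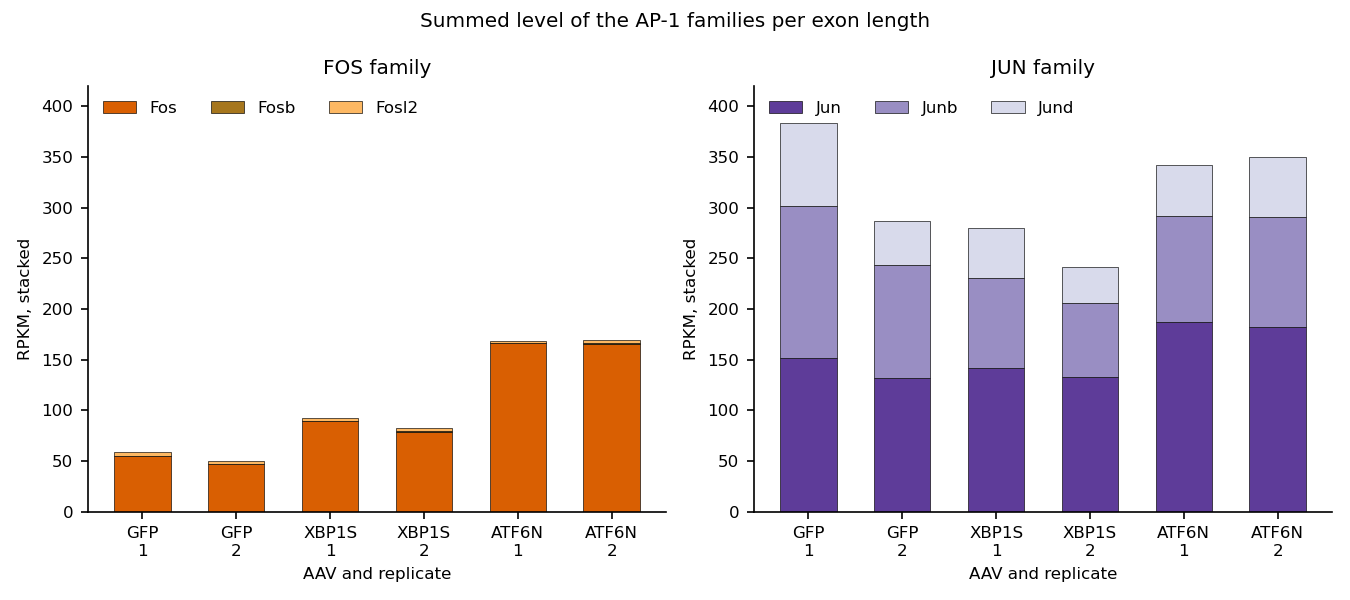
Summed level in RPKM (y axis, linear, from 0) of the FOS family (left) and the JUN family (right) in each of the 6 libraries (x axis), stacked by gene. Fos is nearly all of the FOS sum, which goes from 59.0 and 50.4 in AAV-GFP to 169 with AAV-ATF6N, while the JUN sums stay between 242 and 384.

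Egr1, on chromosome 18 from 34861207 to 34864956 on the plus strand, encodes a zinc finger activator that growth factors and stretch switch on through serum response factor. It stood at 61.4 and 89.9 CPM with AAV-GFP, 105 and 130 with AAV-XBP1S, then 289 and 283 with AAV-ATF6N. The order of the groups was that of Fos, and no groups overlapped. Egr1 rose 3.78-fold in AAV-ATF6N over AAV-GFP, from 75.6 ± 20.1 to 286 ± 4.82 CPM (SD, n = 2). The log2 fold change was 1.92 with a standard error of 0.25 (edgeR adjusted p = 0.0401, rank 57 by p). In AAV-XBP1S it was 0.64 ± 0.25 (SE) and did not pass (edgeR adjusted p = 0.401). AAV-ATF6N exceeded AAV-XBP1S 2.43-fold, past the threshold in DESeq2 (adjusted p = 0.000629) and not in edgeR (0.094). Fos and Egr1 had a Pearson r of 0.94 over the 6 libraries.

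Ier2, on chromosome 8 from 84661331 to 84662852 on the minus strand, encodes a small nuclear protein and is among the first genes that growth factors induce. It had 157 and 116 CPM with AAV-GFP, 134 and 109 with AAV-XBP1S, then 157 and 159 with AAV-ATF6N. The AAV-ATF6N libraries lay just above the higher control library, at almost the same level, and AAV-XBP1S overlapped AAV-GFP. Neither difference from AAV-GFP passed, at -0.16 ± 0.23 (SE) in AAV-XBP1S and 0.21 ± 0.23 in AAV-ATF6N on the log2 scale (edgeR adjusted p = 0.798 and 0.62).

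Ier3, also called IEX-1, on chromosome 17 from 35821713 to 35822911 on the plus strand, is an NF-kB target with a part in cell survival. The level was 93.5 and 59.2 CPM with AAV-GFP, 29.4 and 21.9 with AAV-XBP1S, then 37.9 and 35.4 with AAV-ATF6N. Both treated groups lay below both control libraries, and AAV-XBP1S was lowest. The mean of AAV-GFP was 2.98 times that of AAV-XBP1S and 2.08 times that of AAV-ATF6N. The log2 fold changes were -1.57 ± 0.29 (SE) and -1.06 ± 0.28. The first had an adjusted p of 0.11 in edgeR and of 0.000143 in DESeq2, and the second 0.235 and 0.0335. Without AAV-GFP replicate 1, the library that stood apart, the log2 fold changes were -1.21 and -0.69. Without AAV-GFP replicate 2 they were -1.84 and -1.35. With an offset for exon length, added after the data had been seen, they were -1.38 and -0.61. In the authors' deposited table, made with DESeq2 or DESeq per the submitters' processing notes, Ier3 had -1.58 in AAV-XBP1S with an adjusted p of 0.00728, and -1.05 in AAV-ATF6N with 0.0569.

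Myc, on chromosome 15 from 61985341 to 61990361 on the plus strand, encodes the growth-promoting factor that pairs with MAX. It was scarce, at 3.77 and 4.35 CPM with AAV-GFP, 2.42 and 1.91 with AAV-XBP1S, then 11.6 and 9.38 with AAV-ATF6N, from counts of 156 to 939. Its libraries lay above both control libraries in AAV-ATF6N and below both in AAV-XBP1S, and no groups overlapped. AAV-ATF6N exceeded AAV-XBP1S 4.85-fold, a rise of 2.28 ± 0.28 (SE) on the log2 scale that passed (edgeR adjusted p = 0.0479). Against AAV-GFP, Myc was 2.58-fold higher in AAV-ATF6N (log2 1.37 ± 0.27) and 1.88-fold lower in AAV-XBP1S (log2 -0.91 ± 0.27). Those differences had adjusted p of 0.12 and 0.292 in edgeR, and the first passed in DESeq2 (0.00195).

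**Figure D4:**
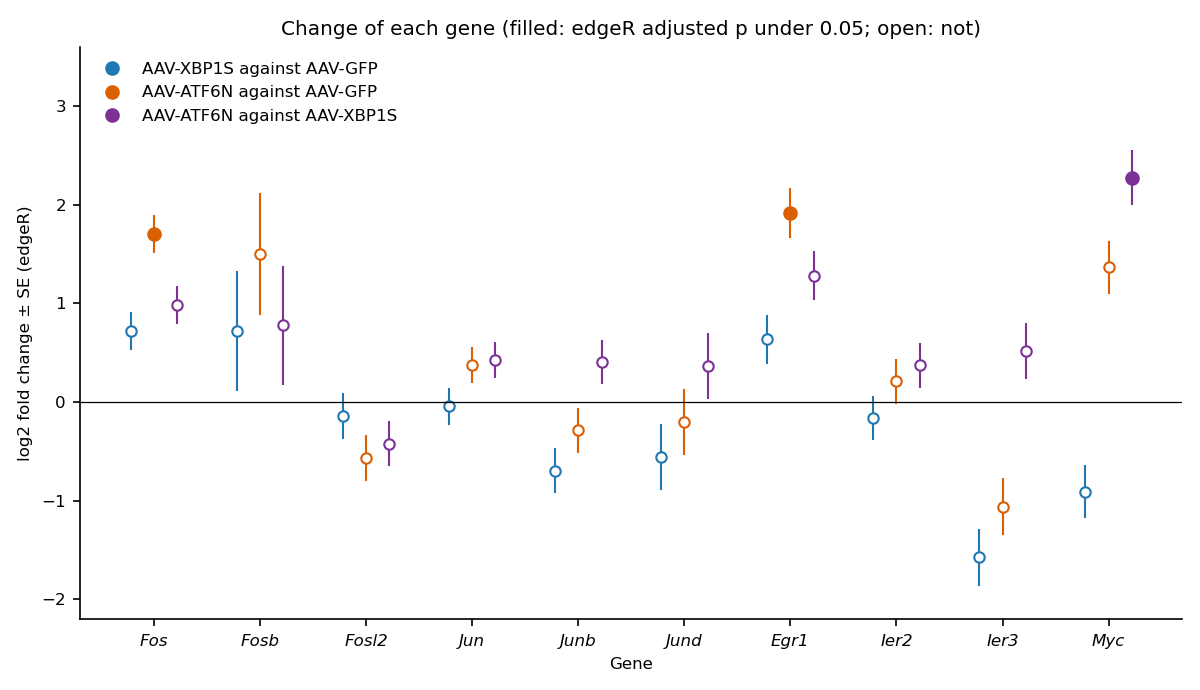
Log2 fold change of each of the 10 genes (y axis, with bars of 1 standard error from edgeR) in the 3 comparisons, which share libraries. Filled points have an edgeR adjusted p under 0.05. Fos and Egr1 are filled in AAV-ATF6N against AAV-GFP (1.70 and 1.92) and Myc in AAV-ATF6N against AAV-XBP1S (2.28).

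Counted over the 10 genes, 0 passed edgeR's test in AAV-XBP1S against AAV-GFP, where 0.315% of all genes tested passed. At an unadjusted p under 0.05 there were 5, Fos and Egr1 higher and Junb, Ier3 and Myc lower, against 11.6% of all genes. DESeq2 called 1, Ier3, against 3.17%, and the authors' deposited table likewise called Ier3 of the 10 genes, against 1.31%. Groups did not overlap for 5 of the 10 genes, 2 higher and 3 lower, against 35.9% of all genes. The median log2 fold change of the 10 genes was -0.15, beside -0.01 over all genes tested.

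In AAV-ATF6N against AAV-GFP, 2 of the 10 passed in edgeR, both higher, against 0.514% of all genes. At an unadjusted p under 0.05 there were 6, of which 4 were higher and 2 lower, against 13.5%. DESeq2 called 4, Fos, Egr1 and Myc higher and Ier3 lower, against 3.76%. The authors' deposited table called Fos (log2 fold change 1.71, adjusted p = 1.12e-06), Egr1 (1.93, 3.58e-07) and Myc (1.38, 0.0125), against 2.71% of its genes. Groups did not overlap for 9, 6 higher and 3 lower, with Jund the exception, but 54.5% of all genes did the same. The median was 0.30, beside -0.02 over all genes.

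In AAV-ATF6N against AAV-XBP1S, 1 of the 10 passed in edgeR, Myc, against 0.226% of all genes. Fos, Egr1 and Myc had an unadjusted p under 0.05, against 13.2%, and the same 3 genes were called by DESeq2, against 5.39%. No groups overlapped for any of the 10, with 9 higher in AAV-ATF6N and Fosl2 lower, against 56.9% of all genes without overlap. The median was 0.47, beside -0.01 over all genes. Each treated group is compared with the same AAV-GFP libraries, so values of the first and second comparison are not independent of each other.

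The calls depended on which libraries entered the fit. In edgeR, Fos and Egr1 passed in AAV-ATF6N against AAV-GFP with all 6 libraries and without either AAV-GFP library, but not without either AAV-XBP1S library or either AAV-ATF6N library, or in a fit of only the 4 libraries compared. Leaving out 1 AAV-XBP1S or AAV-ATF6N library gave adjusted p of 0.1 to 0.404 for Fos and 0.136 to 0.404 for Egr1. In the fit of only 4 libraries the log2 fold changes were almost the same, 1.71 for Fos and 1.92 for Egr1, and the adjusted p 0.0984 and 0.137. Myc in AAV-ATF6N against AAV-XBP1S did not pass without any one of the 4 libraries of those groups, at log2 fold changes of 2.11 to 2.42, and it did pass in the fit of only those 4. Without AAV-GFP replicate 2 the control is 1 library, the one that stood apart, and it is assumed to vary like the libraries of the other groups. In that fit 5 of the 10 genes passed against AAV-GFP in AAV-ATF6N, namely Fos, Egr1 and Myc higher and Fosl2 and Ier3 lower, while the number over all genes went from 75 to 3052. In the same fit Ier3 passed in AAV-XBP1S as well (log2 fold change -1.84, edgeR adjusted p = 0.0245).

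Other genes of the pathway were read from 8 lists that hold none of the 10. Among 11 tested of 12 other AP-1 and bZIP factors, Atf3, a stress-induced ATF factor that pairs with JUN, was the only one called by edgeR in either comparison against AAV-GFP. It had 30.5 and 33.3 CPM with AAV-GFP, 59.7 and 54.8 with AAV-XBP1S, then 79.8 and 81.8 with AAV-ATF6N, and rose by 1.34 ± 0.19 (SE) on the log2 scale in AAV-ATF6N (edgeR adjusted p = 0.048). Its order of groups was that of Fos and Egr1. The medians of the list were 0.37 with AAV-XBP1S and -0.66 with AAV-ATF6N, against -0.01 and -0.02 over all genes. These medians rest in part on scarce genes, as Batf, Batf2, Batf3 and Maf had group means of 0.0491 to 0.799 CPM. In AAV-ATF6N these had log2 fold changes of -1.06, -1.02, -0.70 and -1.03, with standard errors of 0.75, 0.63, 1.09 and 1.02. The AAV-XBP1S median is the value of Maf, from 58 counts against 44 with AAV-GFP and a standard error of 0.98. Of 11 tested EGR, NR4A and KLF factors, 0 were called in either comparison against AAV-GFP by edgeR. At an unadjusted p under 0.05 there were 5 and 3, all higher, against 11.6% and 13.5% of all genes. DESeq2 called 2 and 3, against 3.17% and 3.76%. The list's median was 0.42 in both comparisons. Nr4a1, an orphan nuclear receptor of the early wave, was highest in AAV-XBP1S, with 74.4 and 109 CPM with AAV-GFP, 174 and 192 with AAV-XBP1S, then 126 and 128 with AAV-ATF6N. Egr2, a relative of Egr1, had 0.752 and 1.21 CPM with AAV-GFP, 1.33 and 4.13 with AAV-XBP1S, then 5.45 and 4.41 with AAV-ATF6N.

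Dissociation can itself induce early genes, and a list of 30 other early and dissociation genes was therefore set beside the 10. The sum of the list was 3310 and 3203 CPM with AAV-GFP, 2901 and 2872 with AAV-XBP1S, then 4035 and 4104 with AAV-ATF6N, and Npas4 was at 0 in 3 libraries. A sum of CPM is set mostly by its most abundant genes. The sum was highest in AAV-ATF6N, as were the means of Fos, Fosb, Jun, Egr1, Ier2 and Myc. Fosl2, Junb, Jund and Ier3 had their highest means in AAV-GFP. The sum was lowest in AAV-XBP1S, where Fos and Egr1 lay above AAV-GFP, and Junb, Ier3 and Myc below. Against AAV-GFP the list's median log2 fold change was -0.29 in AAV-XBP1S (12 genes above 0, 17 below). In AAV-ATF6N it was 0.05 (17 above, 12 below), and the medians over all genes were -0.01 and -0.02. Whether isolation moved the 10 genes along with the list was not tested. In a bulk library, fewer cells of a type and less RNA per cell cannot be told apart. Of 29 tested, edgeR called Gadd45b lower in AAV-XBP1S, beside 0.315% of all genes. It called Atf3, which both lists hold, higher in AAV-ATF6N, beside 0.514%. At an unadjusted p under 0.05 there were 13 in AAV-XBP1S (3 higher, 10 lower), beside 11.6% of all genes, and 13 in AAV-ATF6N (7 higher, 6 lower), beside 13.5%. DESeq2 called 1 higher and 6 lower in AAV-XBP1S, beside 3.17% of all genes, and 6 higher and 3 lower in AAV-ATF6N, beside 3.76%. Gadd45b, an NF-kB and stress target that feeds into MAP kinase signalling, had 30.3 and 19.5 CPM with AAV-GFP, 3.66 and 3.45 with AAV-XBP1S, then 13.4 and 12.9 with AAV-ATF6N. It fell by 2.81 ± 0.28 (SE) on the log2 scale in AAV-XBP1S (edgeR adjusted p = 0.0189). Cebpb, a bZIP factor of inflammation, and Gadd45g were low in AAV-XBP1S, with 79.9 and 63.3 CPM for Cebpb against 309 and 204 with AAV-GFP and 240 and 288 with AAV-ATF6N. Neither passed in edgeR in AAV-XBP1S (adjusted p = 0.0629 and 0.0943).

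Among 18 feedback inhibitors, edgeR called 1 lower in AAV-XBP1S and 2 lower in AAV-ATF6N, both inhibitors of NF-kB signalling. These calls stand beside 0.315% and 0.514% of all genes. Tnfaip3, which encodes A20, had 28.5 and 53.3 CPM with AAV-GFP, 4.26 and 5.05 with AAV-XBP1S, then 6.68 and 5.94 with AAV-ATF6N. It fell by 3.14 ± 0.35 and 2.70 ± 0.34 (SE) on the log2 scale (edgeR adjusted p = 0.0273 and 0.0357). Nfkbia, which encodes the inhibitor that holds NF-kB in the cytoplasm and is itself its target, had 335 and 210 CPM with AAV-GFP, 72.3 and 52.9 with AAV-XBP1S, then 57.9 and 58.0 with AAV-ATF6N. It fell by 2.23 ± 0.30 in AAV-ATF6N (edgeR adjusted p = 0.0401), and its difference in AAV-XBP1S, -2.12 ± 0.29, had an adjusted p of 0.0524. In both genes, as in Ier3, all treated libraries lay below both control libraries. Groups did not overlap, in either direction, for 35.9% of all genes in AAV-XBP1S and 54.5% in AAV-ATF6N. Whether NF-kB had a part in these levels was not tested. Dusp6, which turns off ERK kinases, had 8.69 and 15.9 CPM with AAV-GFP, 23.5 and 30.1 with AAV-XBP1S, then 38.4 and 35.3 with AAV-ATF6N, and did not pass (edgeR adjusted p = 0.283 and 0.135). The medians of the list were 0.07 and 0.12.

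Of 23 regulators upstream of these genes, SRF, the TCF factors, CREB and MAP kinases, edgeR called 0 in either comparison against AAV-GFP. At an unadjusted p under 0.05 there were 5 and 4, DESeq2 called 0, and the medians were -0.02 and 0.16. Over all genes, 11.6% and 13.5% had an unadjusted p under 0.05, and DESeq2 called 3.17% and 3.76%. The same shares apply to the other lists of this paragraph. Srf was 85.7 and 82.0 CPM with AAV-GFP, 55.7 and 49.8 with AAV-XBP1S, then 72.8 and 71.0 with AAV-ATF6N. Of 14 genes of the MYC network, 0 were called by edgeR, 3 and 3 had an unadjusted p under 0.05, and DESeq2 called 1 and 0. Max, the partner of MYC, had 35.2 and 30.6 CPM with AAV-GFP, 14.5 and 8.44 with AAV-XBP1S, then 30.1 and 24.4 with AAV-ATF6N, and did not pass in AAV-XBP1S (-1.52 ± 0.30 on the log2 scale, edgeR adjusted p = 0.144). Of 20 MYC targets of ribosome biogenesis and growth, edgeR called 0 in either comparison. At an unadjusted p under 0.05 there were 0 in AAV-XBP1S and 2 in AAV-ATF6N, and DESeq2 called 0 and 1, with medians of -0.05 and -0.17. Cad, of pyrimidine synthesis, had 9.15 and 12.5 CPM with AAV-GFP, 8.73 and 17.2 with AAV-XBP1S, then 28.1 and 28.2 with AAV-ATF6N. Of 17 tested AP-1 targets edgeR called 0 in either comparison. In AAV-XBP1S 2 were higher and 6 lower at an unadjusted p under 0.05, and all 5 that DESeq2 called were lower, while the median over the 17 was 0.27. In AAV-ATF6N 1 was higher and 2 lower at an unadjusted p under 0.05, DESeq2 called 1 higher and 1 lower, and the median was 0.05. Mmp9, a gelatinase, had 104 counts over both AAV-GFP libraries, 10 with AAV-XBP1S and 0 with AAV-ATF6N, which puts it at least 29.9-fold lower in the last group if 3 counts over the group are taken as the floor. Hmox1, for heme oxygenase, had 5.50 and 4.85 CPM with AAV-GFP, 8.27 and 9.24 with AAV-XBP1S, then 10.5 and 11.7 with AAV-ATF6N. In AAV-ATF6N against AAV-XBP1S, edgeR called no gene of these 8 lists.

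**Figure D5:**
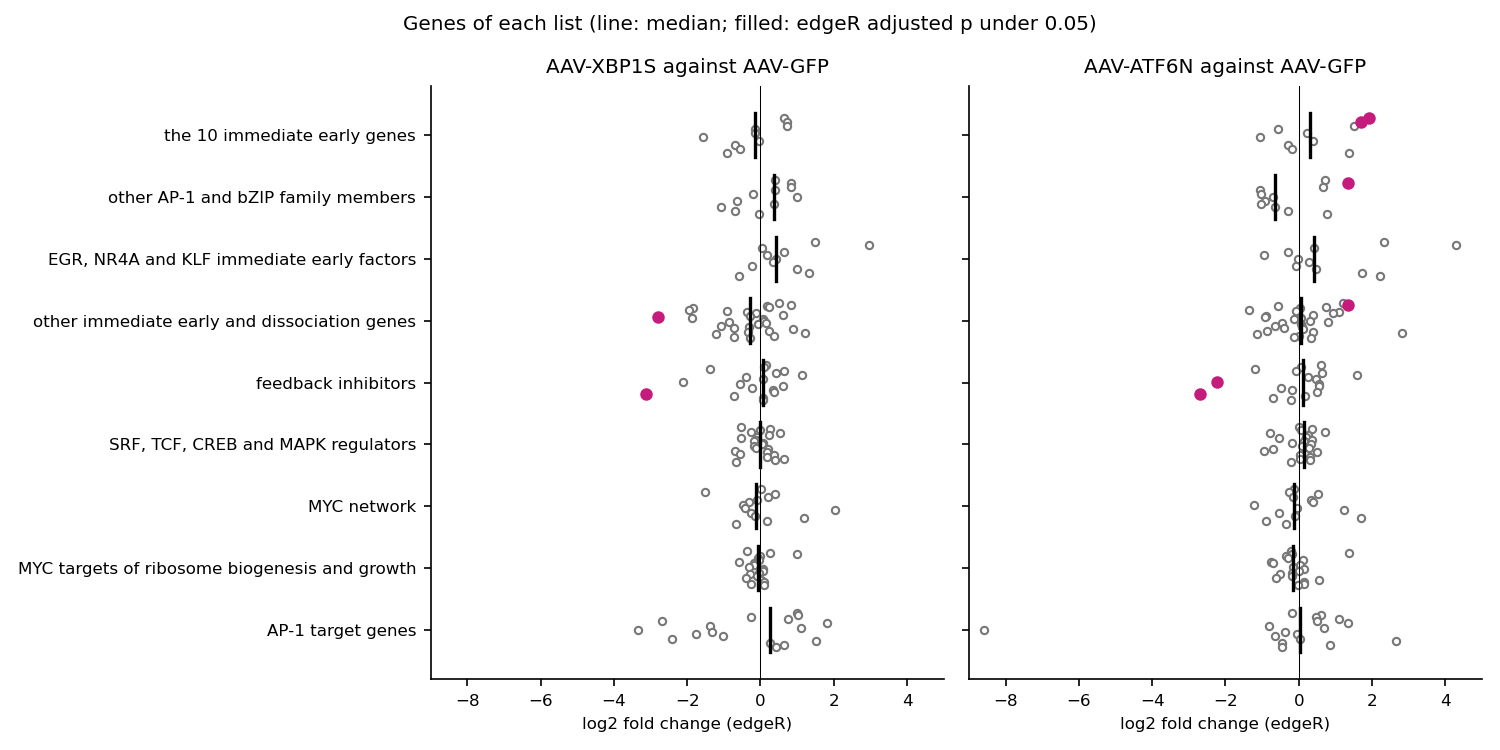
Log2 fold change (x axis, edgeR) of each gene of the 10 and of the 8 lists beside them (rows), in AAV-XBP1S (left) and AAV-ATF6N (right) against AAV-GFP. Vertical strokes are medians and filled points have an edgeR adjusted p under 0.05. The point at the far left is Mmp9, which had 0 counts in AAV-ATF6N, so that its place is no measured size.

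By likeness over the 6 libraries, among 9532 genes with a mean of at least 5 CPM, the genes closest to Fos were Shmt1 (Pearson r 0.993), Phlda1 (0.989), Nppa (0.987), Cdyl2 (0.986) and Pdia3 (0.985). Nppa, the atrial natriuretic peptide gene, had 229 and 101 CPM with AAV-GFP, 465 and 301 with AAV-XBP1S, then 2184 and 2340 with AAV-ATF6N. Pdia3, an ER oxidoreductase, had 181 and 185, 234 and 235, and 400 and 392 CPM. The genes closest to the mean of all 10 were Itgb1bp3 (0.990), Cmya5 (0.986), Pacsin3 (0.981), Mad2l1bp (0.976) and Murc (0.974). Among the 10, the pairs most alike were Junb and Ier3 (0.946), Fos and Egr1 (0.941), Jun and Myc (0.888), and Junb and Jund (0.880), and Fosl2 and Egr1 were the most opposed (-0.939). These r values rest on 6 points that share groups, and they carry no p.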

How the data were processed

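Polyadenylated RNA of sorted cardiomyocytes was read in 6 libraries; the labels name SMART-Seq v4 and Nextera XT, and a description SMART-Seq2; these kits do not mark strand. The authors' deposited table holds whole-number counts per gene and exon lengths, and the submitters' processing notes name STAR, featureCounts and the build mm10. Tool versions, annotation and strand handling were not given in the sources used here. Further tables by the authors, against AAV-GFP, hold log2 fold changes and p-values with Benjamini-Hochberg adjustment, per the file headers, and the mean normalized signal and scores, which were not used. All columns of counts were used, and 0 were left out.

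Genes were kept by filterByExpr with a count minimum of 10 and tested over all 6 libraries with edgeR 4.0.16 (R 4.3.3): TMM, glmQLFit and glmQLFTest, the group as the only term, two-sided, Benjamini-Hochberg adjustment over 14587 genes, threshold 0.05. Residual degrees of freedom were 3. DESeq2 1.42.0 and other settings were alternatives. An exact permutation of 2 against 2 cannot go below 33.3%, so none was used. Replicate numbers were not taken to pair samples, since the labels give no pairing. No source names molecular identifiers, so the floor of 3 counts covers counting error only; standard errors come from the fit and include the spread between libraries. The 10 genes and the lists beside them were chosen with earlier results of these data known. Named list genes were those past the threshold and up to 4 more of smallest p; genes alike in pattern were the 5 of highest r (log2 CPM, prior count 2, limma 3.58.1 loaded with edgeR).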

Additional observations from a re-analysis of the deposited data

How the results depend on the processing

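Fos and Egr1 in AAV-ATF6N against AAV-GFP kept their direction in every alternative run, and so did Ier3 and Myc in each comparison. The number of the 10 genes called against AAV-GFP in AAV-XBP1S was 0 in the test reported; it was 1 with DESeq2, 1 with no filter on low counts and 2 with an offset for exon length, an alternative added after the data had been seen, and 0 to 1 when a library was left out. Over all genes the calls went from 46 to 484, 233 and 289 in those alternatives. In AAV-ATF6N against AAV-GFP it was 2, and became 4 with DESeq2, 3 with no filter and 0 with only the 4 libraries compared (from 75 to 573, 348 and 8 over all genes), and 0 to 5 when a library was left out. In AAV-ATF6N against AAV-XBP1S it was 1, and became 3 with DESeq2, 3 with no filter, 3 with only the 4 libraries compared, 0 with robust glmQLFit and 5 with the offset (from 33 to 803, 458, 666, 28 and 606 over all genes), and 0 to 3 when a library was left out. AAV-GFP replicate 2 carried the upper end of the second range, as 5 were called without it. The cause was not tested. Over all genes the calls went from 75 to 3052 without that library, with a control of 1 library.

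With a replicate block the counts called were 1 for AAV-XBP1S against AAV-GFP (Ier3, -1.56, edgeR adjusted p 0.0174 in place of 0.11), 2 for AAV-ATF6N against AAV-GFP and 2 for AAV-ATF6N against AAV-XBP1S (Egr1, 1.30, besides Myc), and the calls over all genes rose from 46, 75 and 33 to 165, 237 and 356. The correlation of same-numbered deviations was 0.379 between AAV-GFP and AAV-XBP1S, -0.0402 between AAV-GFP and AAV-ATF6N and -0.048 between AAV-XBP1S and AAV-ATF6N. That 4 of 6 libraries correlated best with their own number adds nothing to these values, since the 2 deviations of a group mirror each other. Same-numbered libraries thus deviated together in the first pair of groups and not in the others, and the labels give no pairing.

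Leaving out a library turned 4 differences that had not passed: Fosl2 in AAV-XBP1S (range -0.33 to 0.10), Jun in AAV-XBP1S (-0.12 to 0.057, with 0.01 without AAV-XBP1S replicate 2), Ier2 in AAV-XBP1S (-0.34 to 0.071) and Jund in AAV-ATF6N (-0.58 to 0.34). Depth limits Fosb most, at 32 to 234 counts. The other limit is 2 libraries per group.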
